A study of Homo sapiens with 20 samples.

Results

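The later response of the LP-1 myeloma line to an inhibitor of BET proteins was measured on 4 of the 20 exon arrays of the series: 2 arrays of cells given the inhibitor for 8 h and 2 arrays of cells given its inactive enantiomer for 8 h. The arrays were chosen by their titles and all 22011 probe sets were used. LP-1 is a human multiple myeloma line, grown here in IMDM with fetal bovine serum, and the comparison line Raji is a human Burkitt lymphoma line, grown in RPMI with fetal bovine serum. Each line was left untreated (0 h) or received 500 nM of the active or the inactive compound for 4 or 8 h, which gave 10 groups of 2 biological replicates per the series text. The labels do not name the compound, so no structure is given, and the inactive enantiomer is the mirror-image molecule at the same dose. No vehicle sample and no untreated sample at 4 or 8 h was used, so a comparison with untreated cells joins compound and time in culture. The question was which genes differ between cells given the active and the inactive form for 8 h.

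BET proteins, such as BRD2 and BRD3, carry paired bromodomains that bind acetylated lysines on histone tails. The elongation kinase P-TEFb releases paused RNA polymerase II into genes, and HEXIM1 holds P-TEFb in an inactive complex with the 7SK RNA. In myeloma, a cancer of plasma cells, the MYC gene and the genes of plasma cell identity are known for strong enhancers, and MYC in turn drives genes of ribosome assembly and cell growth.

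Values are the deposited log2 expression values, so a difference of 1 is a change of 2-fold. Unless another error is named, ± is the standard error of a difference between groups of 2 arrays, in a limma model fitted to all 20 arrays. Adjusted p-values (Benjamini-Hochberg over 22011 probe sets) are two-sided, and a gene is said to rise or fall, or to be called, only at an adjusted p under 0.05. With 2 arrays a group, precision is limited by how few there are. Replicate arrays of the 8 h groups correlated at r = 0.975 and 0.976 across probe sets, which are not independent, against 0.973 to 0.989 over all 10 groups. Array medians were 5.36 and 5.33 with the inhibitor and 5.27 and 5.26 with the inactive form. Of 9 plasma cell markers, 8 were measured by a probe set with 1 gene symbol, and all 8 lay above the array median in inactive-treated cells, with IRF4 at percentile 98.3, PRDM1 at 95.6, XBP1 at 91.4, CD38 at 85.8 and SDC1 at 65.8. Their summed level was 12.2 and 12.3 (log2) with the inactive form and 12.2 and 12.2 with the inhibitor. Markers of T and NK cells (1 of 14 above the median, summed log2 level 7.58 to 7.89 over the 4 arrays), myeloid cells (2 of 9, 7.82 to 8.08) and erythroid cells (0 of 3, 5.52 to 5.93) were low. Of 10 mature B cell markers 2 lay above the median (8.06 to 8.37). Of 12 epithelial or fibroblast markers 4 did (11.2 to 11.5), with VIM, which many cell types express, at percentile 97.5 and KRT8 at 91.6. Of the plasma cell markers 3 fell at 8 h (TNFRSF17, SLAMF7 and POU2AF1), and none of the other markers was called.

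The inhibitor changed 1262 probe sets (5.73% of 22011) at 8 h, of which 828 rose (3.76%) and 434 fell (1.97%), while 4163 had an unadjusted p under 0.05. In every called probe set both inhibitor arrays lay on one side of both inactive arrays, a separation that 27.9% of all probe sets showed upwards and 16.3% downwards. The median called rise was 0.84 and the median called fall 0.84 in size, 417 called probe sets moved by more than 2-fold, and 34 rises and 19 falls exceeded 2 on the log2 scale. Calls were more frequent where signal was higher. With the probe sets cut by mean level into 3 bins of 7337, the lowest bin had 1.62% called, the middle one 5.48% and the highest 10.1%, and the median standard error was 0.252, 0.193 and 0.177 in these bins. The split between rises and falls depended on the scaling of the arrays. Rises were 65.6% of calls as deposited, 53.9% after quantile normalization (832 of 1545) and 49.9% after centring each array on its median (600 of 1203). Single arrays mattered: leaving out inhibitor replicate 1 or 2 gave 509 or 985 calls, and leaving out inactive replicate 1 or 2 gave 485 or 592. A limma fit to the 4 arrays alone, which has less information on the spread, called 0, with 2891 at an unadjusted p under 0.05.

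**Figure D1:**
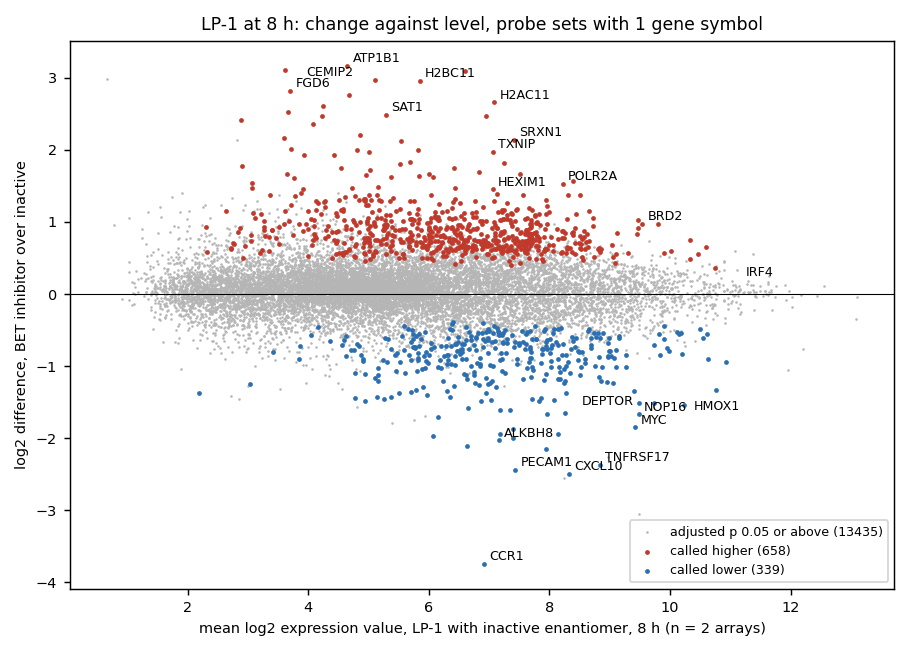
Each point is one of the 14432 probe sets with 1 gene symbol, with the mean log2 value of the 2 inactive-treated arrays on the x axis and the log2 difference of inhibitor over inactive form at 8 h on the y axis. The 658 called rises (red) and 339 called falls (blue) lie at all levels but more densely at higher ones, CCR1 is the deepest called fall (-3.74) and IRF4 lies near 0 at the top of the range.

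MYC fell, and the genes of the elongation machinery that BET proteins work with mostly rose or did not pass. MYC, which encodes the growth-driving transcription factor, read 9.37 and 9.47 with the inactive form and 7.66 and 7.49 with the inhibitor. The groups lay far apart, and the difference was -1.85 ± 0.16 (adjusted p = 7.19e-05), a 3.6-fold fall. It was the only one of 12 measured genes of the MYC and MAX network that passed. The MYC antagonists MXD1 (0.70, adjusted p = 0.141) and MXD3 (0.48, adjusted p = 0.137) did not, and MYC's partner MAX differed by 0.02. In bulk RNA, less transcript per cell and fewer cells with the transcript cannot be told apart.

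Of 14 measured genes for BET proteins, P-TEFb and the super elongation complex, 4 rose and 1 fell, or 35.7% called against 6.94% of all 14232 genes measured. HEXIM1, the P-TEFb inhibitor, read 6.98 and 7.14 with the inactive form and 8.68 and 8.34 with the inhibitor (1.45 ± 0.14, adjusted p = 0.000108). BRD2, itself a BET gene, read 9.55 and 9.53 against 10.50 and 10.53 (0.98 ± 0.11, adjusted p = 0.000438), so replicates differed far less than the groups did. CCNT1, the cyclin of P-TEFb, rose by 0.64 ± 0.17 and AFF4, the scaffold of the super elongation complex, by 0.74 ± 0.14, while MLLT3, another member of elongation complexes, fell by 0.76 ± 0.18. BRD3 differed by 0.17 (95% interval -0.15 to 0.50, adjusted p = 0.61). The largest subunit of RNA polymerase II, POLR2A, read 8.23 and 8.22 with the inactive form and 9.95 and 9.56 with the inhibitor (1.53 ± 0.13, adjusted p = 8.04e-05). The other 9 measured subunits did not pass (10.0% of that list called). Among 25 other bromodomain genes TRIM24 (0.85 ± 0.16) and ATAD2 (0.78 ± 0.16) rose, 8.0% called, near the 6.94% of all genes measured. The calls of MYC, HEXIM1, BRD2 and POLR2A held without each of the 4 arrays. Those of MLLT3 were lost without any 1 of them (adjusted p 0.0856 to 0.13), those of CCNT1 without inhibitor replicate 1 and without either inactive array (highest adjusted p 0.33), AFF4 without inhibitor replicate 2 or inactive replicate 1 (highest 0.0894), TRIM24 without inactive replicate 1 (0.0775) and ATAD2 without all but inhibitor replicate 2 (highest 0.111).

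Genes of ribosome assembly and RNA polymerase I formed the list with the highest share of falls. Of 31 measured, 19 fell and none rose, a share of 61.3% called against 6.94% of all genes measured. The list's median level with the inactive form was 8.07, against 5.31 over all genes, and 10.1% of probe sets in the highest bin by level were called. Their median difference was -0.57 against 0.07 over all genes. In 28 of the 31 both inhibitor arrays lay below both inactive arrays, against 2361 of all 14232 genes measured. NOP16, a nucleolar protein of the large ribosomal subunit's assembly, read 9.36 and 9.61 with the inactive form and 7.73 and 7.90 with the inhibitor (-1.67 ± 0.21, adjusted p = 0.00079). POLR1B, the second largest subunit of RNA polymerase I, read 6.21 and 6.48 against 4.73 and 5.10 (-1.43 ± 0.32, adjusted p = 0.0201). In both genes the inhibitor arrays lay more than 1 below the inactive arrays. HEATR1, a factor of small subunit assembly and rRNA transcription, fell by 1.15 ± 0.23, MRTO4 of the large subunit pathway by 1.12 ± 0.22, UTP20 of the small subunit processome by 1.03 ± 0.20, and NOC3L by 0.91 ± 0.24. UBTF, the architectural factor of rDNA promoters, fell least among those called, by 0.48 ± 0.13 (adjusted p = 0.0472). The other 12 falls (POLR1A, LYAR, DDX10, WDR12, NOP2, RRP9, RCL1, WDR74, NIP7, DDX21, RRP1B and PES1) lay between 0.51 and 0.90 in size. Fibrillarin (FBL, -0.09), which methylates rRNA, did not pass. Most of these falls were modest beside their error, and the count was 9 or 5 with inhibitor replicate 1 or 2 left out and 4 or 2 with inactive replicate 1 or 2 left out, while the median stayed between -0.69 and -0.54. NOP16 kept its call in each of these fits.

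**Figure D2:**
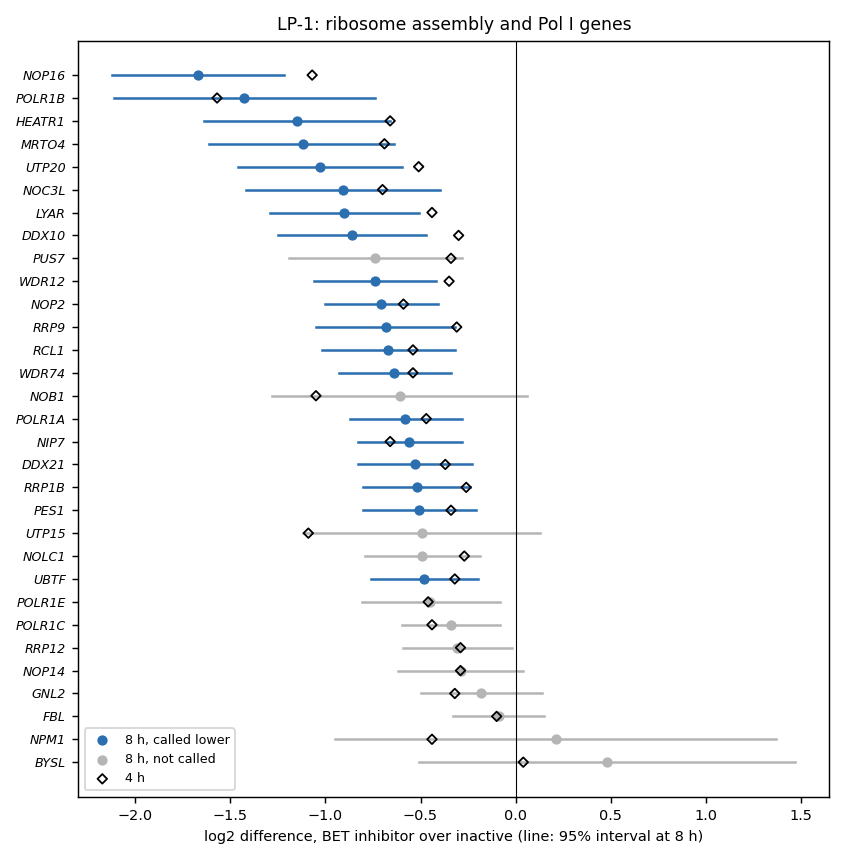
The 31 measured genes of ribosome assembly and RNA polymerase I are ordered by their log2 difference of inhibitor over inactive form at 8 h (filled points with 95% interval lines, blue where called lower), with the 4 h difference as open diamonds. NOP16 and POLR1B lie farthest to the left, and 19 of 31 are called lower at 8 h.

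MYC with its partner MAX binds the palindrome CACGTG, so the promoters of these genes are shown for this motif. RefSeq promoter sequences on GRCh38.p14, 300 bases long (250 before to 50 after the start), were matched by Entrez identifier for 11385 of the 14232 genes measured. CACGTG, which reads the same on both strands, occurred in 7.43% of all 27305 promoters of the table, in 8.99% of measured genes, in 9.65% of genes called higher (53 of 549) and in 17.2% of genes called lower (49 of 285). In the ribosome assembly list it occurred in 12 of 27 promoters (44.4%), and among the called falls in 7 of 18 (38.9%). The measured genes of the list as a whole thus hold the motif at least as often as those that fell. These are descriptions of letters in a window and no test of binding. In UTP20 the motif lies upstream of the start, its first base 10 bases before it, in the 250 bases at chr12:101279855-101280104 (plus strand), printed 5′ to 3′ with the motif in capitals.
UTP20: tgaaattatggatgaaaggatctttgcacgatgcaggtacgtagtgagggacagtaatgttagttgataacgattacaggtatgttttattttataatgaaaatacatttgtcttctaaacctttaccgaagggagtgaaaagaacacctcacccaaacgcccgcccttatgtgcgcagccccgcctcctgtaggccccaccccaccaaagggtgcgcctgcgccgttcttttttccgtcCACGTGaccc
In the other 6 genes that fell and hold the motif it lies at or just after the start, and a window of 30 bases is shown for each, with the motif in capitals and the gene's sense strand printed, to show the bases beside the motif, by which the windows were chosen.
MRTO4 (chr1:19251807-19251836, plus strand): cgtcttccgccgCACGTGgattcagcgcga
NOC3L (chr10:94362903-94362932, minus strand): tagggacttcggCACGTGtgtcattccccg
NOP2 (chr12:6568242-6568271, minus strand): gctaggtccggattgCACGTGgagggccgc
RRP9 (chr3:51941892-51941921, minus strand): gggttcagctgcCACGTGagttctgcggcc
RCL1 (chr9:4792936-4792965, plus strand): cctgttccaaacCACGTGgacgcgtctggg
PES1 (chr22:30591880-30591909, minus strand): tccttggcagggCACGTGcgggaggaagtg
In RRP9 the motif spans the start. The largest falls of the list, NOP16 and POLR1B, hold no CACGTG in their 300 bases.

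A pair of tRNA modification genes were among the largest falls of the whole comparison. ALKBH8, which methylates wobble uridines in tRNA, read 7.04 and 7.28 with the inactive form and 5.21 and 5.06 with the inhibitor (-2.03 ± 0.19, adjusted p = 0.000106). ADAT2, the catalytic subunit of the tRNA adenosine deaminase, read 7.12 and 7.66 against 5.22 and 5.56 (-2.0 ± 0.18, adjusted p = 8.71e-05). In both genes the groups lay well apart. Of 20 nucleotide synthesis genes CAD alone passed (-0.58 ± 0.15), of 18 cytosolic tRNA synthetases FARSA alone (-0.54 ± 0.13), and of 65 mitochondrial ribosomal protein genes 4 fell (MRPS2 -0.83, MRPL12 -0.62, MRPS34 -0.61 and MRPS5 -0.48), with a list median of -0.27. These 3 lists had 5.0%, 5.56% and 6.15% called, below the 6.94% of all genes measured. None of 31 cytosolic ribosomal protein genes (median -0.02) and none of 60 oxidative phosphorylation genes (median -0.04) was called by limma. Every one of these single falls other than those of ALKBH8 and ADAT2 lost its call when at least 1 of the 4 arrays was left out (highest adjusted p 0.231, for MRPS34 without inhibitor replicate 2).

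Several of the largest falls lay in genes for receptors, chemokines and surface proteins. CCR1, a receptor for inflammatory chemokines, read 6.67 and 7.16 with the inactive form and 2.80 and 3.54 with the inhibitor. At -3.74 ± 0.39 (adjusted p = 0.000223) it was the largest fall among probe sets with 1 symbol, 13.4-fold. CXCL10, an interferon-induced chemokine, read 8.33 and 8.31 against 5.46 and 6.20 (-2.49 ± 0.29, adjusted p = 0.000443). EDNRB, an endothelin receptor, read 7.88 and 8.01 against 5.87 and 5.72 (-2.15 ± 0.22). In all 3 genes the inhibitor arrays lay at least 2 log2 units below the lower inactive array. P2RY10, a receptor for lysophospholipids, fell by 2.11 ± 0.29, and RGS1 and RGS16, which shut off G protein signals of such receptors, by 1.70 ± 0.23 and 1.00 ± 0.24. These were the 6 falls among 27 measured chemotactic receptors, chemokines and RGS genes (22.2% called against 6.94% of all genes measured). None rose, and the list median was -0.18. Leaving out any 1 of the 4 arrays left 5 falls, as RGS16 lost its call each time (adjusted p 0.0861 to 0.133).

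Of 15 measured plasma cell surface genes 7 fell and none rose (46.7% called against 6.94% of all genes measured, median -0.64). TNFRSF17, which encodes BCMA, a receptor for the survival factors BAFF and APRIL, read 8.71 and 8.97 with the inactive form and 6.52 and 6.44 with the inhibitor (-2.37 ± 0.32, adjusted p = 0.00142). SLAMF7, an antibody target in myeloma, read 7.15 and 7.22 against 5.68 and 5.49 (-1.60 ± 0.18, adjusted p = 0.000313). CD48, another receptor of the SLAM family, read 9.44 and 9.54 against 8.04 and 7.91 (-1.51 ± 0.19, adjusted p = 0.000703). The 2 arrays of each group lay close together in these genes and the groups far apart. The costimulatory receptor CD28 fell by 1.21 ± 0.19 and TNFRSF13B, which encodes the BAFF and APRIL receptor TACI, by 1.19 ± 0.27. The orphan receptor GPRC5D fell by 0.95 ± 0.22 and the interleukin 6 receptor IL6R by 0.64 ± 0.15. IL6R lost its call without any 1 of the 4 arrays. Among 20 leukocyte adhesion genes 3 fell and 1 rose. PECAM1, which mediates contacts of leukocytes with endothelium, read 7.30 and 7.57 against 5.20 and 4.8 (-2.44 ± 0.27, adjusted p = 0.000276). SELPLG, the ligand of P-selectin, read 8.18 and 8.34 against 6.62 and 6.61 (-1.65 ± 0.14, adjusted p = 7.45e-05). ICAM1 fell by 0.67 ± 0.16 and the integrin subunit ITGB1 rose by 0.62 ± 0.17. The calls of TNFRSF17, SLAMF7, CD48, CD28, PECAM1 and SELPLG held without each of the 4 arrays. TNFRSF13B lost its call without any 1 of them (adjusted p 0.0608 to 0.133), as did ITGB1 (highest 0.277). GPRC5D lost it without all but inhibitor replicate 1 (highest 0.144), and ICAM1 did too (highest 0.161). Of the surface list, 5 falls were called without inhibitor replicate 1 and 4 without each of the others.

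**Figure D3:**
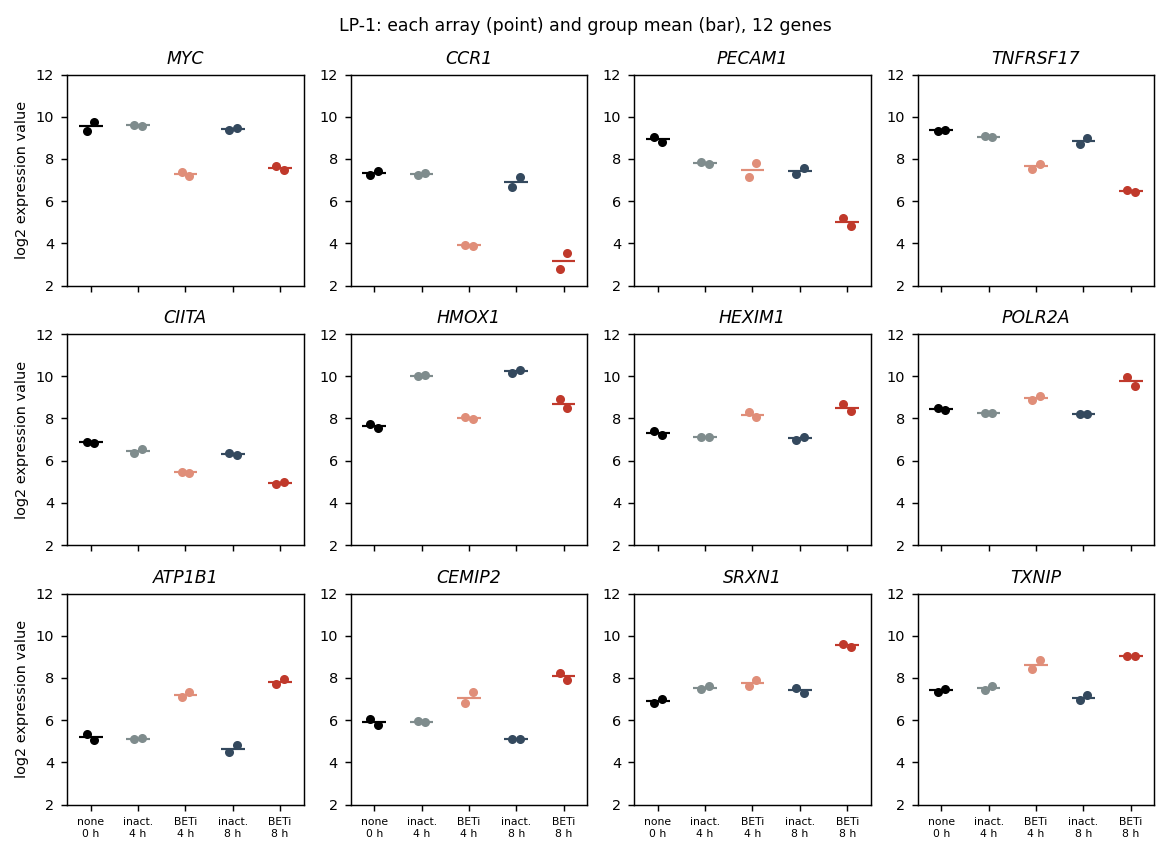
Log2 expression values of 12 genes on the 10 LP-1 arrays (points) with group means (bars), for untreated cells at 0 h (none) and cells given the inactive form (inact.) or the BET inhibitor (BETi) for 4 or 8 h. The 8 h inhibitor arrays lie below the 8 h inactive arrays in MYC, CCR1, PECAM1, TNFRSF17, CIITA and HMOX1 and above them in the other 6 genes. PECAM1 and SRXN1 differ at 8 h but hardly at 4 h, and HMOX1 is higher in inactive-treated than in untreated cells.

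Transcription factors of the B lineage and plasma cells mostly did not pass the test. Of 26 measured, 3 fell and none rose (11.5% called against 6.94% of all genes measured). IKZF3, which encodes Aiolos, read 8.24 and 7.90 with the inactive form and 6.95 and 6.24 with the inhibitor (-1.47 ± 0.22, adjusted p = 0.00245). MYB fell by 1.02 ± 0.19, and POU2AF1, a coactivator of octamer factors, by 0.63 ± 0.12. IKZF3 kept its call without each array. MYB lost it without inhibitor replicate 1 or inactive replicate 2 (highest adjusted p 0.0586), and POU2AF1 without inhibitor replicate 2 or inactive replicate 2 (highest 0.0774). IRF4, the factor on which myeloma cells depend, read 11.15 and 11.18 against 11.10 and 11.32. The groups overlapped, and the difference of 0.05 had a 95% interval of -0.36 to 0.47 (adjusted p = 0.932). ZHX2, a zinc finger and homeobox repressor, fell by 1.59 with arrays at 6.53 and 6.77 against 4.76 and 5.36.

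CIITA, the master activator of HLA class II genes, fell with little spread between replicates. It read 6.35 and 6.26 with the inactive form and 4.91 and 5.0 with the inhibitor (-1.35 ± 0.10, adjusted p = 3.42e-05). The 7 other measured genes of its list did not pass, among them HLA-DRA (0.03), HLA-DPA1 (0.04), HLA-DPB1 (0.08) and the invariant chain CD74 (0.27, 95% interval 0.03 to 0.51, adjusted p = 0.211). Of 28 interferon-stimulated genes CXCL10 fell and IRF9 rose (0.74 ± 0.13), 7.14% called, near the 6.94% of all genes measured. The typical members MX1 (0.06), OAS1 (-0.08) and ISG15 (-0.17) did not pass. Of 19 NF-kB targets NFKBIA, the gene of the inhibitor IkB alpha, rose (0.90 ± 0.16) and ICAM1 fell (10.5% called). NFKBIA lost its call without inhibitor replicate 1 or inactive replicate 1 (highest adjusted p 0.0745). JCHAIN, the joining chain of secreted antibody, differed by -0.04 (95% interval -0.42 to 0.33). None of the 5 genes taken as immunoglobulin genes by symbol passed, among them JCHAIN and IGHMBP2, whose symbol looks like one but which encodes a binding protein. None of 13 BCL2 family genes was called by limma, with BCL2L1 at -0.57 (adjusted p = 0.102) and BCL2L11 at -0.25 (adjusted p = 0.504). MLKL, the effector of necroptosis, fell (5.86 and 6.26 against 4.29 and 3.90, -1.97 ± 0.21, adjusted p = 0.000248).

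Several of the largest rises started from a low level in inactive-treated cells. ATP1B1, the beta subunit of the sodium pump, read 4.48 and 4.82 with the inactive form and 7.70 and 7.93 with the inhibitor. Its rise of 3.17 ± 0.22 (adjusted p = 1.81e-05), 9-fold, was the largest among probe sets with 1 symbol. CEMIP2, a cell surface hyaluronidase, read 5.12 and 5.09 against 8.25 and 7.90 (2.97 ± 0.20, adjusted p = 1.81e-05). FGD6 read 3.93 and 3.46 against 6.64 and 6.39 (2.82 ± 0.26, adjusted p = 8.86e-05). All 3 moved from below the array medians to well above them. SAT1, the acetyltransferase that starts polyamine breakdown, read 5.20 and 5.37 against 8.00 and 7.54 (2.49 ± 0.17, adjusted p = 1.81e-05). TUFT1, tuftelin, rose by 2.61 from 4.15 and 4.35 to 6.67 and 7.04, and SMIM14, a small membrane protein, by 2.76 from 4.27 and 5.09 to 7.32 and 7.55. PAG1, the membrane adaptor that holds the kinase CSK, rose by 2.17 from 4.09 and 3.11 to 5.93 and 5.61. The calls of all 7 genes held without each of the 4 arrays. ATP1B1 was 1 of 4 rises among 27 sodium, calcium and proton pump genes (14.8% called against 6.94% of all genes measured). The other 3 were ATP2B1 and ATP6V1B2 (both 0.71) and ATP6V1D (0.90), each of which lost its call without any 1 of the arrays (highest adjusted p 0.264) and after median centring. Of 220 olfactory receptor genes 3 rose (1.36% called, below the share of all genes), led by OR2B6 (2.83 and 4.39 against 6.70 and 6.74, 3.11), which also held without each array.

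Of 50 measured clustered histone genes 12 rose, none fell and 38 did not pass (24.0% called against 6.94% of all genes measured), and the median was 0.58. H2BC11 read 5.50 and 6.19 with the inactive form and 8.83 and 8.78 with the inhibitor (2.96 ± 0.32, adjusted p = 0.000272). H2AC11, its neighbour, read 6.95 and 7.21 against 9.62 and 9.87 (2.66 ± 0.22, adjusted p = 6.82e-05). H2BC21 read 7.02 and 6.86 against 8.69 and 10.14 (2.47 ± 0.35, adjusted p = 0.00173), so its inhibitor arrays lay far apart but both above the inactive arrays. H2BC5 (3.09 ± 0.57) and H4C16 (2.36 ± 0.40) rose too, and the other 7 rises (H1-1, H2AC6, H2AC16, H2AC17, H3C8, H3C10 and H4C3) lay between 0.83 and 1.31. The count was 7 or 6 with inhibitor replicate 1 or 2 left out and 5 or 7 with inactive replicate 1 or 2 left out. H2BC11, H2AC11 and H2BC21 kept their calls in each of these fits, H2BC5 lost its call without inhibitor replicate 2 or inactive replicate 1 (highest adjusted p 0.0599) and H4C16 without inactive replicate 1 (0.055). Histone genes of one class are near-identical in coding sequence, so probes can share signal between them and the gene behind a rise is uncertain. H2BC11 and H2AC11 are divergently placed and share 247 of their 250 upstream bases, read from opposite strands. The stretch upstream of H2BC11 (RefSeq, GRCh38.p14, chr6:27132796-27133045, minus strand) is printed 5′ to 3′ because it serves both genes, chosen after their values were seen, with CCAAT boxes in capitals (CCAAT, or ATTGG where the box lies on the other strand).
H2BC11: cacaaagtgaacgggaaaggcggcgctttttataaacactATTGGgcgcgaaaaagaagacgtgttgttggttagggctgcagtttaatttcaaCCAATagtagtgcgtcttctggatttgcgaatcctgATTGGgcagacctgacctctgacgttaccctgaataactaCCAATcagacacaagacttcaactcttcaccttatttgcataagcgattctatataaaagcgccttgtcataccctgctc
It holds 4 such boxes, 210, 156, 120 and 80 bases before the start. CCAAT on either strand occurred in 35.7% of all promoters of the table, in 36.5% of measured genes, in 86.7% of clustered histone promoters (39 of 45) and in 10 of 11 promoters of histone genes called higher. The measured histone genes as a whole thus hold the box about as often as those that rose, and the match is a description of letters only.

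Some genes that restrain growth rose, and others did not pass or, as DEPTOR, fell. Of 18 CDK inhibitors and antiproliferative genes 6 rose and none fell (33.3% called against 6.94% of all genes measured, median 0.39). TXNIP, the thioredoxin-interacting protein that limits glucose uptake, read 6.94 and 7.18 with the inactive form and 9.02 and 9.06 with the inhibitor (1.97 ± 0.16, adjusted p = 7.19e-05). CDKN2D, an inhibitor of CDK4 and CDK6, read 4.5 and 5.05 against 6.13 and 6.15 (1.36 ± 0.21, adjusted p = 0.00287). TOB1 rose by 1.04 ± 0.14, ARRDC3 by 1.17 ± 0.16, CDKN1A by 1.04 ± 0.28 and GADD45A by 0.71 ± 0.15. The first 4 kept their calls without each array, CDKN1A lost its call without all but inhibitor replicate 2 (highest adjusted p 0.313) and after median centring, and GADD45A without all but inactive replicate 2 (highest 0.121). Of 14 brakes on mTORC1 and FOXO genes 7 rose and 1 fell (57.1% called against 6.94%, median 0.42). SESN3, a sestrin, read 7.73 and 7.69 against 9.01 and 8.75 (1.17 ± 0.16, adjusted p = 0.00136). PIK3R1, the regulatory subunit of PI3 kinase, rose by 1.03 ± 0.18, FOXO1 by 0.74 ± 0.17, TSC1 by 0.65 ± 0.16, TSC22D3 by 0.65 ± 0.13, SESN1 by 1.05 ± 0.26 and SESN2 by 0.51 ± 0.12. DEPTOR, an mTOR inhibitor known for high levels in some myelomas, went the other way, reading 9.64 and 9.83 against 8.12 and 8.33 (-1.51 ± 0.19, adjusted p = 0.00101). Both SESN3 and DEPTOR kept their calls without each array. The rises of that list numbered 2 or 5 with inhibitor replicate 1 or 2 left out, and 2 with either inactive array left out. Of 23 p53 targets 9 rose and 1 fell (43.5% called against 6.94%, median 0.51). This list shares SESN1, SESN2, CDKN1A and GADD45A with those above. POLH rose by 1.04 ± 0.19, PLK2 by 1.38 ± 0.27 and TP53INP1 by 0.90 ± 0.22, and MDM2, the feedback inhibitor of p53, fell by 0.74 ± 0.17. The p53 list had 2 or 3 rises with inhibitor replicate 1 or 2 left out, 1 or 4 with inactive replicate 1 or 2 left out and 4 after median centring, and MDM2 was not called without any 1 of the 4 arrays (adjusted p 0.0749 to 0.143).

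**Figure D4:**
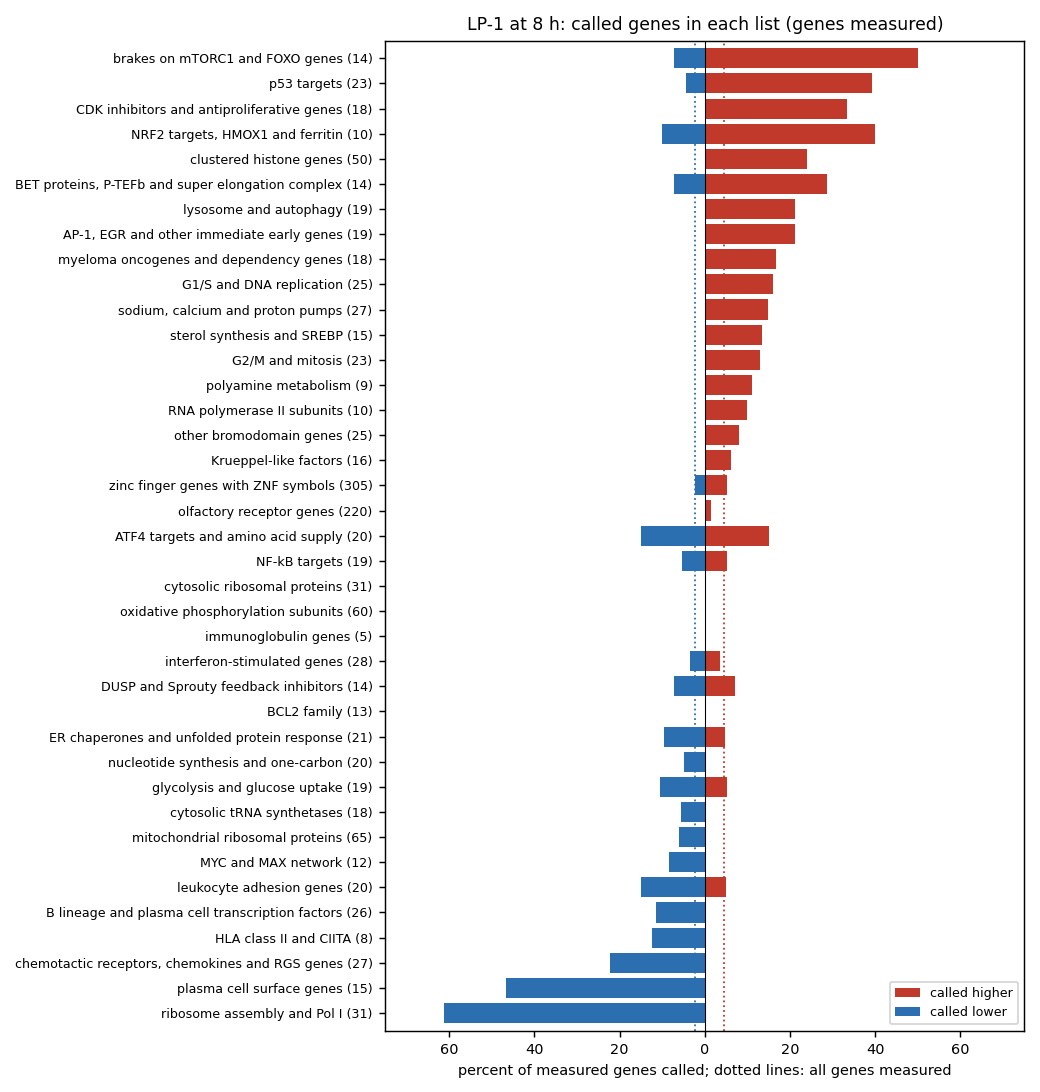
For each gene list shown (number of measured genes in brackets) the bars give the percent of measured genes called higher (red, to the right) and called lower (blue, to the left) at 8 h, with dotted lines for all 14232 genes measured. Ribosome assembly (19 of 31 lower) and plasma cell surface genes (7 of 15 lower) stand at the bottom, and brakes on mTORC1 and FOXO genes (7 of 14 higher) and p53 targets (9 of 23 higher) at the top.

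Targets of the oxidative stress factor NRF2 split between themselves. Of 10 measured genes, 4 rose and 1 fell (50.0% called against 6.94% of all genes measured). SRXN1, the sulfiredoxin that repairs peroxiredoxins, read 7.52 and 7.30 with the inactive form and 9.60 and 9.49 with the inhibitor (2.14 ± 0.19, adjusted p = 8.71e-05). FTL, the ferritin light chain, read 7.82 and 8.06 against 9.19 and 9.31 (1.31 ± 0.18, adjusted p = 0.00152). GCLC, the catalytic subunit of glutathione synthesis, rose by 0.89 ± 0.17 and OSGIN1 by 0.58 ± 0.15. HMOX1, heme oxygenase, fell: it read 10.17 and 10.30 against 8.91 and 8.49 (-1.53 ± 0.29, adjusted p = 0.00865). SLC7A11 (-0.06) and TXNRD1 (0.23) did not pass. SRXN1 and FTL kept their calls without each array, while GCLC lost its call without inhibitor replicate 1 or inactive replicate 1 (highest adjusted p 0.0919), OSGIN1 without any 1 array (highest 0.213) and HMOX1 without inhibitor replicate 2 or inactive replicate 2 (highest 0.0572).

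Some 8 h differences involved genes that differed between inactive-treated and untreated cells. That comparison called 111 probe sets (0.504%; 10 higher, 0.0454%, and 101 lower, 0.459%), and the inhibitor at 8 h against untreated cells called 1685 (7.66%; 434 higher, 1.97%, and 1251 lower, 5.68%). Both share arrays with the comparison of inhibitor and inactive form, so only the levels are set side by side. HMOX1 read 7.76 and 7.56 in untreated cells, so the inactive form lay 2.57 above them (adjusted p = 0.00338) and the inhibitor 1.04 above (adjusted p = 0.0447). ANXA1, an annexin, read 4.34 and 4.22 untreated, 6.91 and 6.98 with the inactive form and 6.01 and 5.13 with the inhibitor. In both genes the inhibitor arrays lay between the untreated and the inactive-treated arrays. EGR1, an immediate early factor, read 6.13 and 6.32 untreated, 4.96 and 5.37 with the inactive form and 6.26 and 6.40 with the inhibitor. DUSP1, a phosphatase of MAP kinases, read 6.71 and 6.61, then 4.76 and 5.52, then 6.49 and 6.55. ETFRF1 read 7.31 and 7.0, then 5.83 and 5.22, then 7.64 and 7.02. In these 3 genes the inactive-treated arrays were the low ones (inactive over untreated -1.06, -1.52 and -1.63, adjusted p = 0.0269, 0.0382 and 0.0456), and the inhibitor over untreated was 0.11, -0.14 and 0.18, not called. The calls of inhibitor over inactive form for ANXA1, DUSP1 and ETFRF1 did not hold without each array. Those differences ranged from -1.81 to -0.938 for ANXA1, 0.995 to 1.75 for DUSP1 and 1.5 to 2.12 for ETFRF1. PECAM1 and CIITA were lower in both treated groups. PECAM1 read 9.03 and 8.82 untreated, so the inactive form lay 1.49 below (adjusted p = 0.038), and CIITA read 6.89 and 6.85, with the inactive form 0.56 below (adjusted p = 0.038). MSMO1, a sterol synthesis enzyme, read 9.30 and 9.68 untreated, 7.67 and 7.99 with the inactive form and 7.42 and 7.72 with the inhibitor, whose difference from the inactive form (-0.27) did not pass. The 111 calls fell to 19 after quantile normalization, 34 after median centring and 9 to 24 when 1 of the 4 arrays concerned was left out (24 and 21 without inactive replicates 1 and 2, 9 and 11 without untreated replicates 1 and 2).

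Smaller groups of calls are given by their counts, to be read against 6.94% of all genes measured (652 of 14232 higher, 336 lower). Of 19 immediate early genes 4 rose (ZFP36 1.06, EGR1 1.16, JUN 0.87 and IER2 0.85), none fell (21.1% called), and the median was 0.37, with ZFP36 and EGR1 kept without each array. KLF6 rose by 1.29 ± 0.21, the only call among 16 Krueppel-like factors (6.25%). Of 25 G1/S and replication genes 4 rose (E2F7 1.16, UHRF1 0.91, ORC1 0.66 and CCNE2 0.66) and none fell (16% called), and of 23 G2/M genes 3 rose (CDC25C 1.18, NEK2 0.62 and PTTG1 0.59) and none fell (13.0%). The G2/M rises numbered 1 without inactive replicate 2 and 0 without each of the other 3 arrays. E2F7, UHRF1 and ORC1 kept their calls without each array, and the other 4 did not (highest adjusted p 0.247 for CCNE2). Of 19 lysosome and autophagy genes 4 rose (21.1%): the sialidase NEU1 (1.08), the cholesterol transporter NPC1 (0.97), the autophagosome protein MAP1LC3B (0.97) and the protease CTSB (0.81). Without inhibitor replicate 1 or inactive replicate 1, 1 of these remained called. Of 20 ATF4 targets 3 rose and 3 fell (30%), with ASNS (0.79), CTH (0.77) and SESN2 (0.51) higher and the amino acid transporter SLC7A5 (-0.54), STC2 (-1.16) and TRIB3 (-0.55) lower. Leaving out inhibitor replicate 1 or 2 left 0 rises and 1 fall, leaving out inactive replicate 1 left 1 rise and 0 falls, and leaving out inactive replicate 2 left 1 rise and 2 falls. Of 21 ER chaperone genes ERO1B rose (0.93) and SDF2L1 and FKBP11 fell (-0.66 and -0.55), 14.3% called, and each lost its call without at least 1 array (highest adjusted p 0.166, for SDF2L1 without inactive replicate 1). Of 19 glycolysis genes HK2 (-0.81) and TPI1 (-1.48) fell and PKM (0.56) rose (15.8%). TPI1 read 4.64 and 5.25 with the inactive form, at percentile 44.4, and 3.78 and 3.15 with the inhibitor. Untreated cells read 3.27 and 3.52 for TPI1, so its inactive-treated arrays were the high ones (1.55 over untreated, adjusted p = 0.102 by limma). The falls were not called without inhibitor replicate 1 or without either inactive array, and TPI1 lost its call without any 1 array (adjusted p 0.0784 to 0.244). PKM lost its call without inhibitor replicate 1 or inactive replicate 1 (highest 0.151). Zinc finger genes with ZNF symbols were called about as often as all genes (16 rises and 7 falls of 305, 7.54%).

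Set against 4 h, the 8 h response held more rises. At 4 h the inhibitor called 502 probe sets (2.28%; 83 higher, 0.377%, and 419 lower, 1.9%), on other arrays than at 8 h. The share of rises depended on the scaling here too. It was 16.5% as deposited, 33.0% after quantile normalization and 26.4% after median centring, against 65.6%, 53.9% and 49.9% at 8 h. Of the 828 rises at 8 h, 57 were called higher at 4 h (6.88% of the 8 h list and 68.7% of the 4 h list). Of the 434 falls at 8 h, 145 were called lower at 4 h (33.4% and 34.6%). The median 4 h difference was 0.12 for the 8 h rises and -0.55 for the 8 h falls, and 558 of 828 and 411 of 434 had the same sign. A single gene with 1 symbol was called in opposite directions, ZNF143 (0.83 at 8 h, lower at 4 h), which was picked out after its values were seen. The median shift between times changed sign with the scaling: 0.11 as deposited, -0.0276 after quantile normalization and -0.0414 after median centring. The test of the difference itself called 0 probe sets in limma, with 2901 at an unadjusted p under 0.05. So no gene is shown to differ between the times in the fit to all arrays. That count rested on single arrays: it was 560 (544 higher, 16 lower) without 4 h inhibitor replicate 2, 85 without 8 h inhibitor replicate 2, 4 without 8 h inactive replicate 2, 2 without 8 h inactive replicate 1, 1 without 4 h inhibitor replicate 1 and 0 without each of the other 3. Values of some named genes are given side by side, and these are not all of those nearest the threshold. PECAM1 read 7.87 and 7.78 with the inactive form and 7.12 and 7.83 with the inhibitor at 4 h, where the groups overlapped. Its 8 h difference exceeded its 4 h difference by -2.08 (95% interval -2.91 to -1.26, adjusted p = 0.0991). CXCL10 read 7.87 and 7.84 against 7.30 and 7.59 at 4 h, and its difference between times was -2.09 (adjusted p = 0.0991). SRXN1 read 7.46 and 7.60 against 7.62 and 7.92 at 4 h, and its difference between times was 1.90 (95% interval 1.31 to 2.49, adjusted p = 0.0732). In these 3 genes most of the 8 h separation was not seen at 4 h. CEMIP2 was already higher at 4 h (5.94 and 5.89 against 6.81 and 7.33) and differed by a further 1.82 at 8 h (adjusted p = 0.0978). MYC lay lower at both times (-2.30 at 4 h), with a difference between times of 0.46 (95% interval -0.02 to 0.93, adjusted p = 0.404), and CCR1 too (-3.38 at 4 h, difference -0.36, adjusted p = 0.856). Ribosome assembly genes had 4 called falls at 4 h against 19 at 8 h, and the difference between times was called for none of them.

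Raji cells at 8 h shared a part of the response. There 414 probe sets were called (1.88%; 182 higher, 0.827%, and 232 lower, 1.05%), and 103 rises and 73 falls were common with LP-1. The shared rises were 12.4% of those in LP-1 and 56.6% of those in Raji, and the shared falls 16.8% and 31.5%. The median Raji difference was 0.35 for the LP-1 rises and -0.37 for the LP-1 falls, with the same sign in 733 of 828 and 372 of 434. Probe sets called in opposite directions numbered 4: ZMIZ1, ATF7IP and PLEKHA5 rose in LP-1 and fell in Raji, and GPRC5D fell in LP-1 and rose in Raji (the first 3 were picked out after their values were seen). The test of the difference between the lines called 54 probe sets (0.245%; 34 higher in LP-1 relative to Raji, 0.154%, and 20 lower, 0.0909%). Of the 34, 20 were rises in LP-1, and of the 20, 19 were falls in LP-1. The count was 131 without LP-1 inhibitor replicate 2 and 17 to 31 without any 1 of the other 7 arrays.

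Several genes whose fall was larger in LP-1 were low in Raji. CCR1 read 3.39 and 2.12 in Raji with the inactive form, and its response in LP-1 lay 3.25 below that in Raji (adjusted p = 0.0346). PECAM1 read 3.98 and 3.53 (difference -2.32, adjusted p = 0.0311), EDNRB 2.84 and 3.19 (-1.93, adjusted p = 0.0312) and MLKL 3.12 and 3.18 (-1.81, adjusted p = 0.0311). Whether such levels stand above background was not tested, so a fall from them may not have been measurable. SELPLG read 3.70 and 3.80 in Raji with the inactive form and 4.22 and 4.37 with the inhibitor (0.54, adjusted p = 0.0782), and the lines differed by -2.19 (95% interval -2.62 to -1.76, adjusted p = 0.00173). GPRC5D read 3.82 and 3.79 against 4.72 and 4.99 in Raji (1.06, adjusted p = 0.033), and the lines differed by -2.01 (adjusted p = 0.0242). In both genes the inhibitor arrays lay above the inactive arrays in Raji and below them in LP-1. PDCD2L, in contrast, was at the same level in both lines (7.40 and 7.44 in Raji, 7.31 and 7.37 in LP-1, inactive form) and fell in LP-1 by 1.62 ± 0.18, against -0.14 in Raji (difference -1.48, adjusted p = 0.0346).

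Among the rises the picture was mirrored in part. FGD6 (7.75 and 7.65) and PAG1 (7.79 and 7.81) were already high in Raji with the inactive form, above the inhibitor-treated level in LP-1, and the inhibitor arrays there read 7.69 and 7.90 for FGD6 and 7.70 and 7.90 for PAG1. The lines differed by 2.72 for FGD6 (adjusted p = 0.00891) and 2.16 for PAG1 (adjusted p = 0.0234). ATP1B1 started from a like level in Raji (4.89 and 4.94) and reached 5.76 and 5.77 (0.85, adjusted p = 0.0727), and the lines differed by 2.32 (adjusted p = 0.00891). CEMIP2 read 3.77 and 3.89 against 4.09 and 4.60 in Raji (difference 2.46, adjusted p = 0.0054), and TUFT1 3.22 and 3.42 against 3.46 and 3.82 (difference 2.28, adjusted p = 0.00936). SRXN1 differed by 1.76 (adjusted p = 0.0242). SPARCL1, a matricellular protein, was called for its fall in Raji (8.13 and 7.72 to 5.50 and 5.55) while LP-1 differed by -0.05 (difference 2.34, adjusted p = 0.0054). MYC, HEXIM1, BRD2, POLR2A, TNFRSF17, SAT1 and TXNIP were not called for a difference between the lines, which does not show that they respond alike. For TNFRSF17 the difference was -0.55 with a 95% interval of -1.54 to 0.44, and for SAT1 1.32 with 0.79 to 1.85 (adjusted p = 0.0507).

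**Figure D5:**
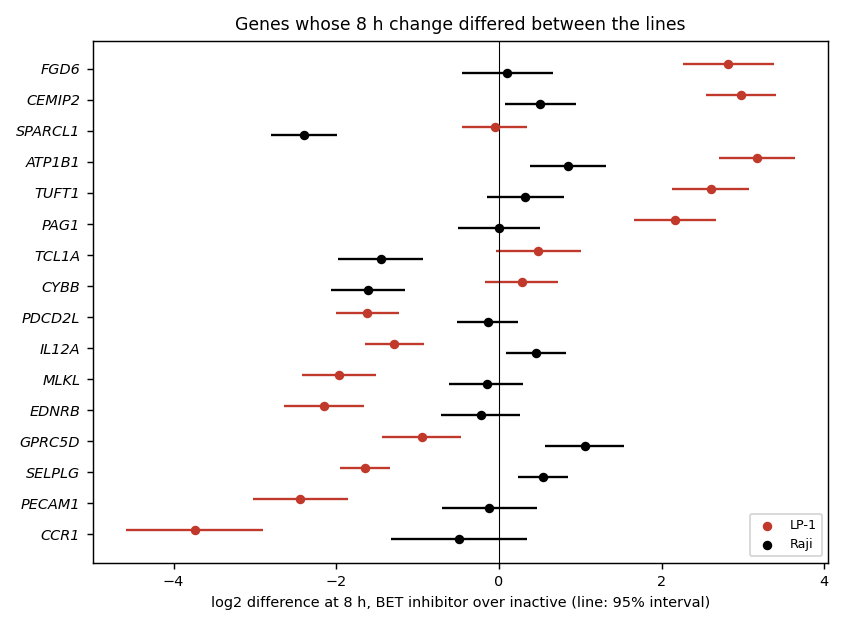
Log2 difference of inhibitor over inactive form at 8 h in LP-1 (red) and Raji (black), with 95% interval lines, for the 16 genes with the largest called differences between the lines (8 each way). CCR1 and PECAM1 at the bottom are called lower in LP-1 and not in Raji, FGD6, CEMIP2 and ATP1B1 are higher mainly in LP-1, and SPARCL1, CYBB and TCL1A are set apart by falls in Raji.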

How the data were processed

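RNA from 20 cultures was measured on Affymetrix human exon arrays. The authors deposited log2 expression values for 22011 probe sets per array. The submitters' processing notes name Affymetrix Expression Console, RMA and hg19, with no roles or versions. Values were used as deposited and the comparison of LP-1 with the inhibitor against LP-1 with the inactive form at 8 h was fitted with limma 3.58.1 in R 4.3.3, over all 20 arrays with 1 mean per group (10 residual degrees of freedom), after tests on simulated data. The same fit gave the comparisons with 4 h, with Raji and with untreated cells. Genes were named from the platform annotation, updated through Entrez identifiers for 14404 of the 14432 probe sets with 1 symbol. The 2408 probe sets with several symbols and 5171 with none enter the tests but are not named. A list counts each gene once, and some items are not reported here.

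The rule for named genes took MYC, HEXIM1, BRD2, BRD3 and IRF4; the 20 largest called falls and rises with separate groups among probe sets with 1 symbol, and the 10 of each at high level; in each list, the members with the lowest p-values, 6 at most; the 8 largest called each way between lines and between times; the 4 largest each way for inactive form over untreated; and the leading other-cell markers. Not all are printed, and other list members were named after their values were seen. The members and lists were chosen with earlier results of these data known. Replicate numbers were not taken as pairs: same-numbered arrays of the 8 h groups had deviations correlated at 0.0443, with only 2 pairs. The labels do not say how many cultures each replicate came from beyond calling replicates biological. Alternatives were the scaling, the moderation, the arrays in the fit, a filter on low values, a replicate block and leaving out each array. Promoter sequences are RefSeq's, on GRCh38.p14.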

Additional observations from a re-analysis of the deposited data

Results flagged for a closer look

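The response at 8 h differed between LP-1 and Raji, by the limma interaction test, for 54 probe sets. The LP-1 response lay below the Raji response by -3.25 for CCR1, -2.32 for PECAM1, -2.19 for SELPLG, -2.01 for GPRC5D, -1.93 for EDNRB and -1.81 for MLKL on the log2 scale. It lay above the Raji response by 2.72 for FGD6, 2.46 for CEMIP2, 2.34 for SPARCL1, 2.32 for ATP1B1, 2.28 for TUFT1 and 2.16 for PAG1. With 2 arrays per group no search for single outlying arrays was made.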

How the results depend on the processing

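At 8 h in LP-1 the falls rose from 434 to 713 after quantile normalization. The fit to LP-1 arrays alone called 347 (226 higher, 121 lower), and the fit to the 4 arrays alone 0 (0 higher, 0 lower). Leaving out 1 array gave 485 to 985 calls, with 263 to 629 higher and 137 to 356 lower. The LP-1 4 h comparison called 76 with LP-1 arrays alone, 0 with its own arrays alone and 64 to 971 without 1 array. The Raji 8 h comparison called 90 with Raji arrays alone, 0 with its own arrays and 100 to 145 without 1 array. The difference between times called 0 to 560 without 1 array. The difference between lines called 1 with its own arrays and 17 to 131 without 1 array. Inactive form over untreated called 19 after quantile normalization, 34 after median centring, 1 with LP-1 arrays, 0 with its own arrays and 9 to 24 without 1 array. Inhibitor over untreated called 775 with LP-1 arrays, 0 with its own arrays and 666 to 1142 without 1 array. With the replicate number as a block, which the check of pairing did not bear out, 1131 were called at 8 h (768 higher, 363 lower), 34 between lines, 51 for inactive form over untreated and 1641 for inhibitor over untreated. IRF4, not called, changed sign to -0.0299 after median centring and ranged from -0.0585 without inhibitor replicate 2 to 0.159 without inhibitor replicate 1. Of 147 genes followed, 143 kept direction and call after quantile normalization, 131 after median centring, 146 with trended and robust moderation, 130 with the replicate block, 76 with LP-1 arrays alone and 2 with the 4 arrays alone. Leaving out 1 array kept 80 to 97 of them. The causes of these changes were not tested, and the smaller fits also hold fewer arrays. No test against background signal was made.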

Other observations

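Several of the largest changes sat on probe sets with no gene symbol. Of the 34 rises over 2 on the log2 scale 11 had none, and of the 19 falls 10 had none. Among all 22011 probe sets 5171 had none. At any size of change, 2.34% of these were called, against 6.91% of those with 1 symbol. Probe set 2841384 read 1.43 and 1.81 with the inactive form and 6.28 and 5.50 with the inhibitor at 8 h, the largest called change of the comparison (4.27 ± 0.58, adjusted p = 0.00136 by limma). At 4 h it read 0.56 and 1.76 against 5.52 and 5.44, and in untreated cells 4.30 and 4.74, so the inactive-treated arrays were the low ones at both times. The largest unnamed fall was probe set 2686806, at 5.65 and 5.18 against 3.44 and 0.79 (-3.30, adjusted p = 0.0374), where the inhibitor arrays lay far apart. Probe set 3768412 read 6.97 and 6.52 against 4.73 and 4.08 (-2.34).

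Among 18 myeloma oncogenes and dependency genes 3 rose and none fell: the kinase PIM1 (0.73), the deubiquitinase CYLD (0.73) and the kinase JAK2 (0.61), 16.7% called against 6.94% of all genes measured. None of the 3 was called without inhibitor replicate 1 or without either inactive array. After median centring 1 was called, and with the replicate number as a block 1 was called.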
